A study of Mus musculus with 9 samples.

Results

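The genes described here are those whose RNA was lower in Hbxip knockout (KO) than in wild-type (WT) mouse embryonic stem cells in every culture studied. Genes were selected on FPKM: a gene was taken where FPKM + 0.5 (fragments scaled to transcript length and library size, with 0.5 added) was at least 2-fold lower in both KO libraries than in the WT library in each of 3 cultures, and where FPKM was at least 1 in all 3 WT libraries. Of 20287 gene IDs listed in any library, 11849 passed the WT minimum and 179 met the fold criterion, which is 1.51% of those that could. The selection then left out 21 of these (12 by name, 5 Zscan4 genes and 4 pseudogenes) and kept 158 genes, of which 155 are annotated as protein coding. Since KO and WT levels chose these genes, their KO-to-WT differences are given as a description, with no test. For scale, 146 of the 11058 genes with FPKM of at least 1 in all 6 KO libraries were 2-fold higher in both KO libraries in every culture.

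The cells were E14, an embryonic stem cell line of mouse strain 129, either Hbxip-/- or wild type. Both genotypes were sampled in 3 cultures. These were pluripotent culture; LIF withdrawal, in which cells spent 96 h without this self-renewal cytokine and were taken on day 4; and embryoid bodies, aggregates in which stem cells start to form other cell types. Each culture held 2 KO libraries and 1 WT library. The labels do not say whether the KO libraries came from separate clones or cultures, so any p-value here measures only the spread between these libraries, which may be technical.

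Hbxip, now named Lamtor5, encodes a subunit of Ragulator, the complex that holds Rag GTPases on the lysosome, where they recruit mTORC1 when amino acids are present. Embryonic stem cells are themselves epithelial: they hold to each other through cadherins and keep tight junctions, desmosomes and an apical surface. Genes of this kind, which also mark trophoblast and later epithelia, are known from other cells to be repressed by zinc-finger factors that bind the E2-box, CAGGTG, as cells become mesenchymal.

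Hbxip itself had 31.0 and 29.1 FPKM in KO pluripotent cells, 16.2 and 15.5 FPKM in KO cells after LIF withdrawal and 22.99 and 18.3 FPKM in KO embryoid bodies, against 40.7, 38.5 and 41.8 FPKM in the WT libraries of the same cultures. It was lower in every KO library but was still counted in all of them, and the labels do not say which exons were deleted. Libraries held 10147277 to 10863845 rounded counts, so that 3 counts, the most that an observed 0 allows, were worth 0.276 to 0.296 CPM (counts scaled to library size). Counting error is all that such limits cover. On the first principal component of all tested genes, which held 51.8% of the variance, the 2 KO pluripotent libraries stood apart at 71.9 and 62.7, against a range of -53.4 to 9.44 for the other 7.

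Among the 158 genes, 23 were grouped as genes of epithelial junctions and identity, a grouping made by hand after the genes were known. Besides junction, polarity and keratin genes, the group holds others such as Esrp1, Cdcp1, Prom1, Padi3, Dlx3 and Zfp750. Promoters from RefSeq (GRCm38.p6) were found for 119 of the 158 genes and for 15 of the 23 epithelial ones. Within 250 bases before the start, the E2-box CAGGTG, searched on both strands (CACCTG on the other), was found at 9 of the 15 epithelial genes with a promoter, which is 60%. It was found at 34 of the 119 genes in all (28.6%) and at 19.4% of the 27025 genes of the table. Counted by promoter, the shares were 47.6% of 21 epithelial, 24.2% of 149 and 17.2% of 32851. This motif was picked after the genes were seen, and a match is a stretch of letters, not a bound site. Other motifs were searched too, and none was tested. ATGCAAAT and AACCNGTT (N is any base) were each in 2 of the 21 epithelial promoters (9.52%), against 1.60% and 1.79% of all. TGANTCA was in 3 (14.3%, against 6.75%) and TTCNNNGAA in 2 (9.52%, against 7.02%). Shares were lower than in all promoters for CTTTGA (9.52%, against 13.8%), CACGTG (4.76%, against 6.02%) and TGATGNAA (0%, against 3.45%).

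Promoters of the 6 epithelial genes that hold the box within 150 bases of a start are printed here. They show the 150 bases up to the start, on the gene's strand, with the box in capitals. They were chosen after their letters were seen, so that the box lies close to the start in them comes from that choice. Ap1m2 lies at chr9:21312334-21312483 (minus strand), Crb3 at chr17:57062051-57062200 (plus, 1 of 2 listed starts), Cldn7 at chr11:69965271-69965420 (plus, the nearer of 2 listed starts), Krt7 at chr15:101412253-101412402 (plus), Ocln at chr13:100552499-100552648 (minus, 1 of 2 listed starts) and Patj at chr4:98395676-98395825 (plus, 1 of 3 listed starts).
Ap1m2: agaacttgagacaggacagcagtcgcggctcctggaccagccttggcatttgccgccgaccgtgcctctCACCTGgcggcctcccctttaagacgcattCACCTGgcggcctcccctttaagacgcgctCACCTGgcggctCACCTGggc
Crb3: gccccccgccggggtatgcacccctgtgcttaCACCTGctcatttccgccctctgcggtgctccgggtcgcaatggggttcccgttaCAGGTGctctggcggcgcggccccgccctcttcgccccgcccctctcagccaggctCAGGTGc
Cldn7: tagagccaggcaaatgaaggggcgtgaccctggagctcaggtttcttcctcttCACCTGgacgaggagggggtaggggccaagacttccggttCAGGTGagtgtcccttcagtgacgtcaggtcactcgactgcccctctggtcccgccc
Krt7: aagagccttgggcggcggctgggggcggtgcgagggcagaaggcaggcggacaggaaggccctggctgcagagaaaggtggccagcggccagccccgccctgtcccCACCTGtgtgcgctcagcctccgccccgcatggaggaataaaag
Ocln: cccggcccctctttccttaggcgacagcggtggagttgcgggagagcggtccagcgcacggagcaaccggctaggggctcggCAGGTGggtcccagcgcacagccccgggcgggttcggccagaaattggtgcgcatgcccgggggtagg
Patj: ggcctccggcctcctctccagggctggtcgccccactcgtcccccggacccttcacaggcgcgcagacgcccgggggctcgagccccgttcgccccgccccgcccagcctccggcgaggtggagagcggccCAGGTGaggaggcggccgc
The box begins 81, 51, 21 and 9 bases before the start of Ap1m2, where a stretch of the sequence is repeated. It begins 118, 63 and 7 bases before this start of Crb3 (148, 93 and 37 before its other listed start), 97 and 57 before Cldn7, 44 before Krt7, 68 before Ocln, with a further one at 213, and 19 before Patj. The other listed start of Ocln and the other starts of Cldn7 and Patj had none in 250 bases. Promoters of Amot, Bspry, Dsp, Lad1, Nectin4 and Ovol2, which belong to the same group, also had none. In Cdcp1, Prom1 and Padi3, the other epithelial genes with a box, it began farther off, 205, 222 and 238 bases before the start. The other listed start of Prom1 had none. The GC box GGGCGG was in 47.0% of the promoters of the 158 genes and 57.1% of the epithelial ones, against 32.7% of all promoters in the table, but against 48.3% of promoters of genes listed in these libraries. The CCAAT box was in 36.9% and 19.0%, against 33.8% of all. Median GC content was 57.6% for the promoters of the 158 genes, 59.6% for the epithelial ones and 52.4% for all.

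Taken over all 158 genes, summed FPKM was 210 and 266 in KO pluripotent cells against 1304 in WT pluripotent cells, 396 and 471 in KO cells against 2118 in WT cells after LIF withdrawal, and 668 and 649 in KO against 2769 in WT embryoid bodies. The sum was lower in every KO library, also in embryoid bodies, than in the lowest WT library. The median gene had 0.575 and 0.715 FPKM in KO pluripotent cells, 1.33 and 1.48 FPKM in KO cells after LIF withdrawal and 2.10 and 2.03 FPKM in KO embryoid bodies, against 4.35, 7.65 and 8.16 FPKM in WT. In KO pluripotent libraries 108 and 96 of the genes lay below 1 FPKM and 7 and 5 were not listed at all; in KO embryoid bodies 37 and 37 lay below 1 FPKM and none was missing. The RNA was bulk RNA, so fewer cells of a type and less RNA per cell cannot be told apart.

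On the log2(FPKM + 0.5) scale, the median difference between KO and WT was -1.99 and -1.78 in the 2 KO pluripotent libraries, -2.14 and -1.89 after LIF withdrawal and -1.63 and -1.60 in embryoid bodies. Over all 11849 genes the same medians lay between -0.14 and -0.01. The difference was lowest in pluripotent culture for 72 genes (45.6%, against 47.7% of all 11849), after LIF withdrawal for 64 (40.5%, against 25.9%) and in embryoid bodies for 22 (13.9%, against 26.4%).

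**Figure D1:**
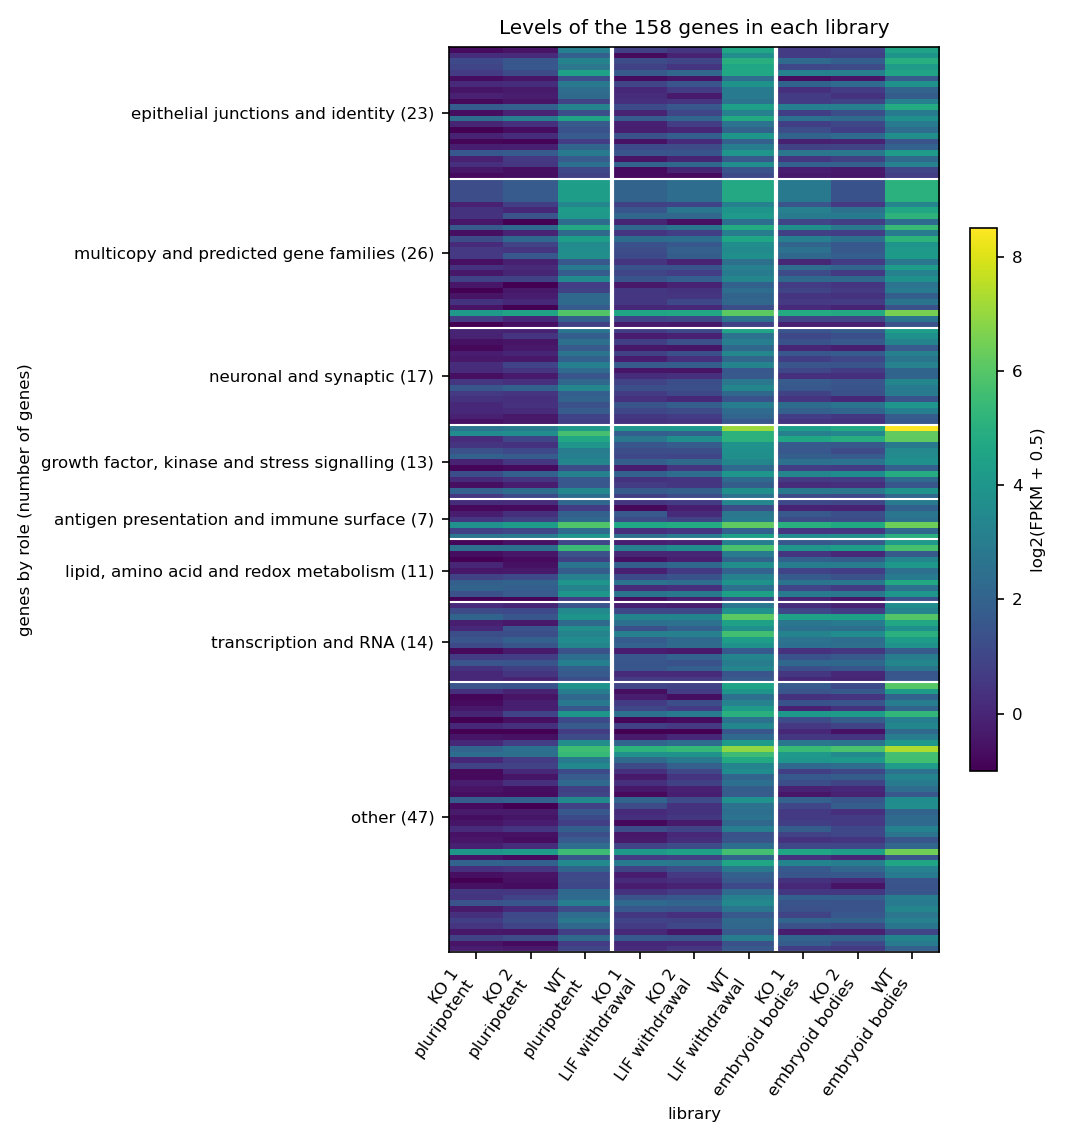
Level of each of the 158 genes as log2(FPKM + 0.5) in the 9 libraries, 6 KO and 3 WT, in order of culture with KO left of WT, and with genes in rows ordered by group and by difference (dark is low, bright is high). The KO pluripotent columns are the darkest, with medians of 0.575 and 0.715 FPKM, and the WT columns the brightest, with medians between 4.35 and 8.16 FPKM.

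The epithelial group held the gene with the deepest difference of all. Esrp1, which encodes a splicing factor that sets epithelial isoforms, had 0.10 and 0.20 FPKM in KO pluripotent cells against 8.12 FPKM in WT, 1.23 and 0.90 FPKM in KO cells against 23.4 FPKM in WT after LIF withdrawal, and 1.12 and 1.37 FPKM in KO against 21.5 FPKM in WT embryoid bodies. Its highest KO value was thus below its lowest WT value, and its mean difference over the cultures was -3.77 on the log2 scale. Over the 23 genes that mean difference ran from -3.77 to -1.49, with a median of -2.02. By culture the group's median was -1.75 in pluripotent cells, -2.46 after LIF withdrawal and -1.60 in embryoid bodies.

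Among genes for junctions and sorting to the cell surface, Cldn7, a claudin of tight junctions, had 1.49 and 2.53 FPKM in KO against 6.32 FPKM in WT pluripotent cells, 1.31 and 0.84 against 23.9 FPKM after LIF withdrawal, and 1.60 and 1.74 against 18.1 FPKM in embryoid bodies. Ap1m2, the epithelial subunit of the clathrin adaptor that sorts proteins to the basolateral membrane, had 1.62 and 2.45 FPKM in KO against 9.05 FPKM in WT pluripotent cells, 1.78 and 1.49 against 31.7 FPKM after LIF withdrawal, and 4.28 and 3.05 against 30.4 FPKM in embryoid bodies. Both of these, whose promoters are printed above, were highest in the 2 differentiating WT libraries. Ocln, which encodes the tight junction protein occludin, had 0.36 and 0.40 FPKM in KO against 3.76 FPKM in WT pluripotent cells, 1.71 and 1.81 against 7.59 FPKM after LIF withdrawal, and 1.30 and 1.44 against 3.52 FPKM in embryoid bodies. For Ocln the KO libraries after LIF withdrawal were the highest of the 6.

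Crb3 and Patj encode partners in the Crumbs complex, which marks the apical side. Crb3 had 2.87 and 3.27 FPKM in KO against 8.99 FPKM in WT pluripotent cells, 1.71 and 2.50 against 20.3 FPKM after LIF withdrawal, and 8.08 and 8.24 against 28.2 FPKM in embryoid bodies. Patj had 0.14 and 0.43 FPKM in KO against 1.94 FPKM in WT pluripotent cells, 0.47 and 1.5 against 8.29 FPKM after LIF withdrawal, and 1.21 and 1.94 against 7.02 FPKM in embryoid bodies. In KO embryoid bodies both came close to the level of WT pluripotent cells, while WT embryoid bodies were higher still.

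Cdh3, or P-cadherin, took a different course. It had 1.07 and 1.76 FPKM in KO against 21.0 FPKM in WT pluripotent cells, 2.67 and 3.94 against 25.1 FPKM after LIF withdrawal, and 8.63 and 8.25 against 22.9 FPKM in embryoid bodies. The WT level was nearly flat, and the log2 difference was -3.49 in pluripotent cells, -2.75 after LIF withdrawal and -1.39 in embryoid bodies. For Dsp, the desmosome plaque protein desmoplakin, it was -2.07, -1.56 and -1.24.

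Lad1, which encodes a protein of the basement membrane zone, had 0.67 and 0.62 FPKM in KO against 3.35 FPKM in WT pluripotent cells, 0.09 and 0.46 against 12.01 FPKM after LIF withdrawal, and 1.13 and 1.25 against 14.5 FPKM in embryoid bodies. Krt7, a keratin of simple epithelia and trophoblast, had 0.12 and 0.25 FPKM in KO against 1.95 FPKM in WT pluripotent cells, 0.12 and 0.23 against 4.78 FPKM after LIF withdrawal, and 0.12 and 0.24 against 2.85 FPKM in embryoid bodies; these KO values rest on 2 and 4 counts in each culture. Krt19, a second keratin of such cells, had 4.75 and 7.96 FPKM in KO against 22.9 FPKM in WT pluripotent cells, 2.85 and 3.79 against 26.7 FPKM after LIF withdrawal, and 5.0 and 4.36 against 13.2 FPKM in embryoid bodies. The 2 keratins thus stayed low in KO throughout. The epithelial transcription factors Ovol2, Dlx3 and Zfp750, named with Ocln, Crb3 and Patj after their values were seen, had mean log2 differences of -1.94, -2.26 and -2.24.

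**Figure D2:**
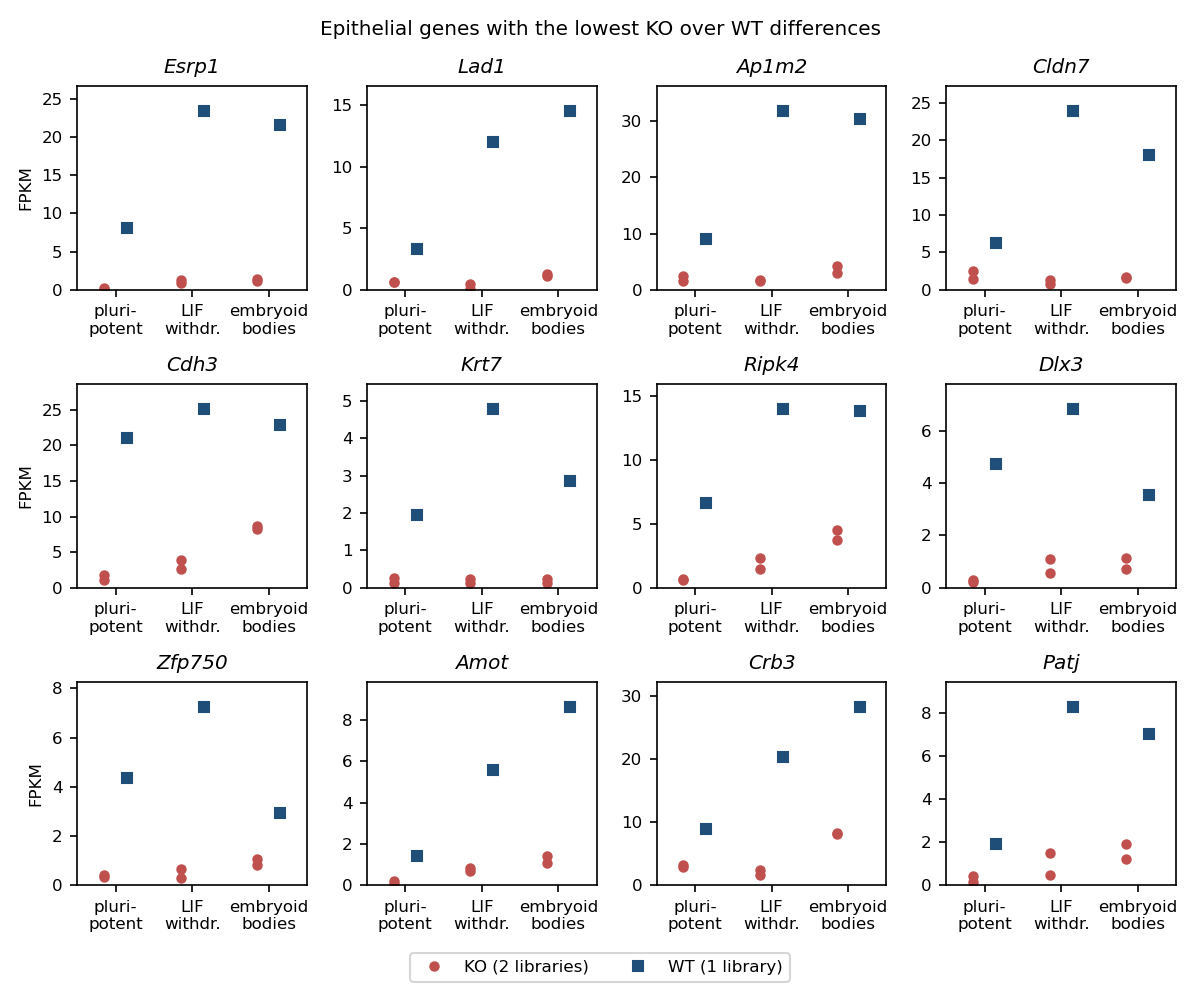
FPKM, on linear axes from 0, of the 12 epithelial genes with the lowest KO-to-WT differences, in the 3 cultures, with the 2 KO libraries (circles) drawn left of the WT library (square). Every KO point lies below the WT point of its culture; Cdh3 is at its highest KO level in embryoid bodies, at 8.63 and 8.25 against 22.9 FPKM, and Esrp1 stays between 0.10 and 1.37 FPKM against 8.12 to 23.4 FPKM.

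Not all epithelial genes were low. Of a list of 23 keratins, claudins, cadherins and junction genes, 22 passed the WT minimum and 6 were among the 158 genes: Krt7, Krt19, Cldn7, Cdh3, Ocln and Dsp. Cldn6, also of this list, met the fold criterion but was left out by name. Cdh1, or E-cadherin, which holds stem cells together, had 48.3 and 52.7 FPKM in KO against 149 FPKM in WT pluripotent cells, 71.7 and 72.9 against 229 FPKM after LIF withdrawal, and 92.6 and 104 against 188 FPKM in embryoid bodies, so it missed the criterion in embryoid bodies. Krt8 went the other way in pluripotent culture, with 40.8 and 34.4 FPKM in KO against 14.4 FPKM in WT, and was lower in KO after LIF withdrawal, with 10.5 and 9.11 against 45.9 FPKM.

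A second block was made of 26 multicopy or predicted genes, which had the lowest group median of mean log2 differences, -2.33. That median counts separately 4 genes with identical values, named below, each at -2.69, the deepest of the group. Tcstv3, a gene of the brief 2-cell-like state of stem cells, had 0.41 and 1.19 FPKM in KO against 9.96 FPKM in WT pluripotent cells, 1.28 and 1.36 against 8.61 FPKM after LIF withdrawal, and 2.31 and 1.01 against 9.45 FPKM in embryoid bodies. Gm8300, of the same list, had 0.63 and 1.42 FPKM in KO against 11.1 FPKM in WT pluripotent cells, 2.10 and 2.61 against 12.1 FPKM after LIF withdrawal, and 3.78 and 2.61 against 14.8 FPKM in embryoid bodies. Their WT levels changed little between cultures. Of the list of 2-cell-like genes, 4 of the 10 that passed the WT minimum were among the 158 (Tcstv3, Gm8300, Usp17la and Usp17lc), and 3 Zscan4 genes of that list were left out by the selection. Usp17la, of a family of deubiquitinases, had a mean log2 difference of -1.57, and Usp17lc one of -1.85.

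These families share sequence, so their counts are uncertain. Gm21293, Gm21304, Gm6763 and Gm8764 had identical values in all 9 libraries, for example 1.90 and 2.79 FPKM in KO against 19.4 FPKM in WT pluripotent cells, and stand for at most 1 measurement. Of the 158 genes, 26 had another of them as an immediate neighbour, in 15 pairs. Peg3 and Peg3os are antisense partners and strand use in counting was not given, so reads of one cannot be told from reads of the other. Hspa1a and Hspa1b encode near-identical chaperones, and Tap1 and Psmb9 lie side by side.

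Signalling genes numbered 13, with a median of -1.86. Pim2, a kinase that promotes survival and growth, had 5.68 and 7.04 FPKM in KO against 17.2 FPKM in WT pluripotent cells, 14.97 and 16.4 against 136 FPKM after LIF withdrawal, and 19.6 and 26.7 against 364 FPKM in embryoid bodies, with log2 differences of -1.37, -3.08 and -3.95 in the 3 cultures. Sgk1, a kinase activated through mTORC2, had 11.4 and 12.2 FPKM in KO against 51.9 FPKM in WT pluripotent cells, 3.12 and 3.38 against 34.1 FPKM after LIF withdrawal, and 8.38 and 9.97 against 74.8 FPKM in embryoid bodies. For Sgk1 both genotypes were lowest after LIF withdrawal. Gpc3, a heparan sulfate proteoglycan of the cell surface, had 0.64 and 1.47 FPKM in KO against 24.9 FPKM in WT pluripotent cells, 6.41 and 12.4 against 33.96 FPKM after LIF withdrawal, and 24.4 and 29.7 against 72.3 FPKM in embryoid bodies, with its largest difference, -4.03 on the log2 scale, in pluripotent cells.

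Fgf17, a secreted growth factor, had 0.86 and 0.82 FPKM in KO against 14.9 FPKM in WT pluripotent cells, 2.38 and 2.91 against 14.1 FPKM after LIF withdrawal, and 2.72 and 2.58 against 6.72 FPKM in embryoid bodies. Ddit4l, an inhibitor of mTORC1 signalling, had 3.39 and 2.93 FPKM in KO against 8.09 FPKM in WT pluripotent cells, 1.57 and 1.46 against 12.7 FPKM after LIF withdrawal, and 3.22 and 2.79 against 11.6 FPKM in embryoid bodies. Jag1, a Notch ligand, had a mean log2 difference of -1.53, and the inducible chaperones Hspa1b and Hspa1a of -2.10 and -1.57; these 3 were picked after their values were seen.

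Metabolic genes numbered 11, with a median of -1.86. Fabp5, a fatty acid carrier, had 5.18 and 5.18 FPKM in KO against 44.1 FPKM in WT pluripotent cells, 8.32 and 11.7 against 54.8 FPKM after LIF withdrawal, and 15.2 and 19.0 against 52.9 FPKM in embryoid bodies, with KO cells nearest to the steady WT level in embryoid bodies. Gpx2, a glutathione peroxidase, had 3.57 and 3.08 FPKM in KO against 9.04 FPKM in WT pluripotent cells, 0.59 and 0.70 against 5.04 FPKM after LIF withdrawal, and 1.48 and 1.07 against 5.41 FPKM in embryoid bodies. Mogat2, an enzyme of triglyceride synthesis, had 0.05 and 0.17 FPKM in KO against 1.53 FPKM in WT pluripotent cells, 0.36 and 0.47 against 8.19 FPKM after LIF withdrawal, and 2.51 and 2.80 against 16.7 FPKM in embryoid bodies. Mogat2 was higher in the differentiating cultures in both genotypes, with KO below WT in each. Acot1, an acyl-CoA thioesterase, Gstm3, a glutathione transferase, and Crabp2, a carrier of retinoic acid added after its values were seen, had mean log2 differences of -1.86, -1.87 and -1.76.

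Genes best known from neurons numbered 17, with a median of -1.72. Kif1a, the motor for synaptic vesicle precursors, had 0.48 and 0.44 FPKM in KO against 5.97 FPKM in WT pluripotent cells, 1.22 and 1.62 against 22.97 FPKM after LIF withdrawal, and 2.35 and 3.03 against 18.9 FPKM in embryoid bodies. Sox11, a transcription factor of neural progenitors and the 1 gene of the 158 on the neuroectoderm list, from which Nes was left out by name, had 0.56 and 0.77 FPKM in KO against 2.09 FPKM in WT pluripotent cells, 2.28 and 3.17 against 7.49 FPKM after LIF withdrawal, and 4.61 and 5.83 against 15.2 FPKM in embryoid bodies. In both genotypes Sox11 was highest in embryoid bodies and lowest in pluripotent cells. Other genes of the neuroectoderm list were mixed. Map2 and Cdh2 were also lower in both KO libraries in every culture. In pluripotent cells Map2 had 0.55 and 0.79 against 2.88 FPKM, and Cdh2 had 1.0 and 1.02 against 1.98. Sox1 was higher in KO in every culture, with 1.68 and 1.86 against 0.9 FPKM, 8.99 and 8.82 against 0.37, and 3.53 and 2.08 against 0.19. Ncam1 was lower in KO pluripotent cells, at 4.25 and 4.84 against 7.13 FPKM. It was higher in KO after LIF withdrawal, at 4.18 and 5.33 against 1.92, and in embryoid bodies, at 7.92 and 6.81 against 2.03. Syt11, a synaptotagmin of membrane traffic, had a mean log2 difference of -1.70.

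Of 14 genes for transcription factors and RNA-binding or chromatin proteins (median -1.84), Sall2, a zinc-finger transcription factor, had 0.38 and 0.29 FPKM in KO against 4.32 FPKM in WT pluripotent cells, 5.09 and 5.37 against 21.3 FPKM after LIF withdrawal, and 6.08 and 6.87 against 25.3 FPKM in embryoid bodies. Foxj1, which switches on genes of motile cilia, had 0.59 and 0.49 FPKM in KO against 2.31 FPKM in WT pluripotent cells, 0.39 and 0.32 against 6.13 FPKM after LIF withdrawal, and 0.67 and 0.47 against 11.9 FPKM in embryoid bodies. Sall2 was higher after LIF withdrawal and in embryoid bodies than in pluripotent cells in both genotypes, while the KO levels of Foxj1 stayed between 0.32 and 0.67 FPKM. Peg3, an imprinted zinc-finger gene, had a mean log2 difference of -2.02, its antisense RNA Peg3os one of -2.14, and Zfp365 one of -2.50.

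Antigen presentation and immune surface genes were 7, with a median of -1.58. Tap1, the peptide transporter for class I molecules, named after its values were seen, had 0.68 and 0.66 FPKM in KO against 4.05 FPKM in WT pluripotent cells, 0.91 and 1.13 against 10.02 FPKM after LIF withdrawal, and 1.63 and 1.51 against 7.25 FPKM in embryoid bodies. Tnfrsf22, a decoy receptor for the death ligand TRAIL in mice, was the most abundant of the group, with 13.5 and 18.6 FPKM in KO against 59.0 FPKM in WT pluripotent cells.

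The other 47 genes had a median of -1.85. Psors1c2 was second only to Esrp1 in depth, with 2.33 and 2.14 FPKM in KO against 13.9 FPKM in WT pluripotent cells, 1.46 and 1.33 against 22.3 FPKM after LIF withdrawal, and 2.82 and 1.71 against 63.2 FPKM in embryoid bodies. Plac8 had 0.72 and 0.44 FPKM in KO against 7.44 FPKM in WT pluripotent cells, 0.14 and 1.10 against 14.7 FPKM after LIF withdrawal, and 2.32 and 2.67 against 17.6 FPKM in embryoid bodies. Psors1c2 stayed flat in KO libraries, whereas Plac8 was highest in KO embryoid bodies. Emb, or embigin, a cell adhesion glycoprotein, was among the most abundant, with 3.77 and 5.12 FPKM in KO against 46.4 FPKM in WT pluripotent cells, 35.0 and 40.2 against 117 FPKM after LIF withdrawal, and 42.4 and 54.5 against 161 FPKM in embryoid bodies. Col1a1, of type I collagen, was the only 1 of the 158 on the collagen and fibroblast lists and had a mean log2 difference of -1.69. Dcdc2c and the non-coding D17Ertd648e, both abundant in WT, had mean log2 differences of -1.59 and -2.13.

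Close to the 2-fold threshold, the lowest WT-to-KO ratio of FPKM + 0.5 was 2.01 for Hspa2, Dlg4 and Cend1 and 2.02 for Grip1, all inside it. Just outside lay the collagen receptor gene Ddr1 at 1.99, Trim47 and Wfdc2 at 1.98 and Fam53b at 1.96.

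Differentiating KO cells were then set against WT cells that had not yet differentiated. After LIF withdrawal both KO libraries lay below the WT pluripotent level for 153 of the 158 genes and above it for 3, whereas of all 11849 genes 51.0% were below and 35.5% above. In embryoid bodies 134 were below and 17 above, against 46.0% and 43.3% of all genes. The selection favours genes high in WT pluripotent cells, so a surplus below that level is in part built into it.

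The change between cultures within a genotype was not used in the selection, although the same libraries were, so the counts that follow describe these genes and are not independent of how they were chosen. Changes were tested in edgeR's quasi-likelihood model over the 13990 genes that averaged 0.5 FPKM or more, which included all 158, and called at a Benjamini-Hochberg adjusted p below 0.05. In KO cells after LIF withdrawal, relative to KO pluripotent cells, 78 of the 158 genes rose, 8 fell and 72 were not called, with a median log2 fold change of 1.04. Of all genes tested, 30.2% rose and 29% fell. In KO embryoid bodies 113 rose, 4 fell and 41 were not called (median 1.53), against 31% and 30% of all genes.

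In WT cells, with 1 library a group, fewer of the genes were called. After LIF withdrawal 62 rose, 1 fell and 95 were not called (median log2 fold change 0.65), against 11.6% of all genes that rose and 8.9% that fell. In WT embryoid bodies 82 rose, 3 fell and 73 were not called (median 0.78), against 19.7% and 18.9% of all. With DESeq2, 28 rose and none fell in WT cells after LIF withdrawal (1 lower at an unadjusted p below 0.05), and 50 rose and none fell in WT embryoid bodies (2 lower at an unadjusted p below 0.05). In KO cells DESeq2 called 5 lower after LIF withdrawal and 2 lower in embryoid bodies. Each WT group had 1 library, which was assumed to vary as the KO pairs did. Both comparisons within a genotype share its pluripotent libraries, and counts of calls in KO and WT come from unequal numbers of libraries, so the difference between them was not tested.

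The KO pluripotent libraries stood apart, so embryoid bodies were also set against cells after LIF withdrawal, which leaves those libraries out, a comparison added after the data were seen. In KO cells 49 of the 158 genes were higher in embryoid bodies, 4 were lower and 105 were not called (median log2 fold change 0.49), against 16.7% higher and 17.6% lower of all genes. In WT cells 25 were higher, 15 lower and 118 not called (median 0.19), against 9.57% and 12% of all.

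**Figure D3:**
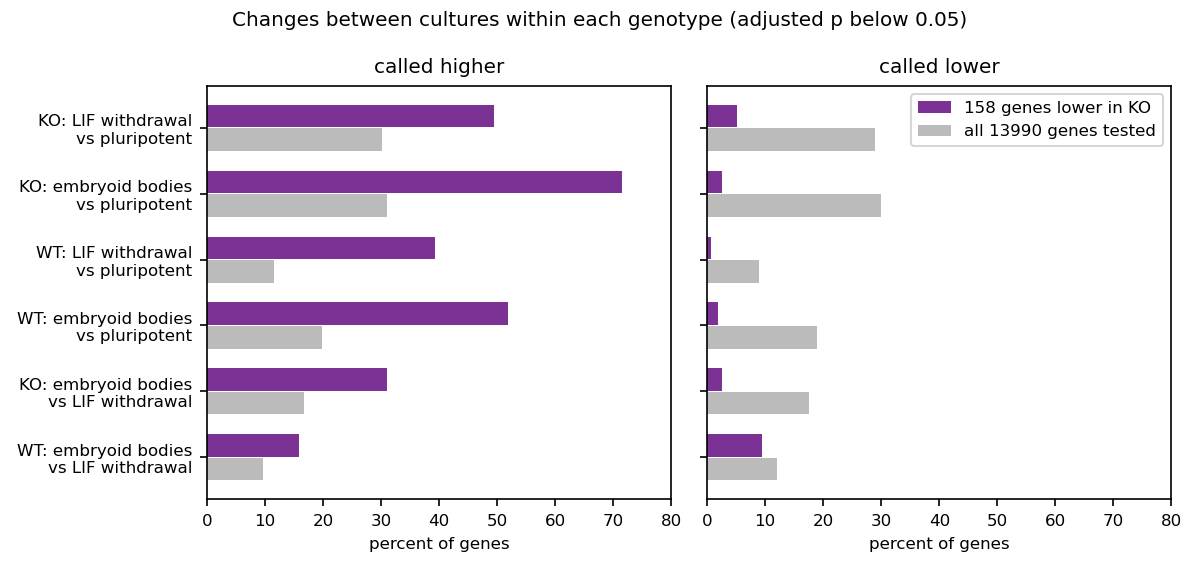
Share of the 158 genes (percent) called higher or lower in each comparison between cultures within a genotype, with each KO comparison above its WT counterpart, beside the share of all 13990 genes tested. Higher calls exceed lower calls in all 4 comparisons with pluripotent cells, most of all in KO embryoid bodies, with 113 of 158 higher and 4 lower.

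The groups by role were made by hand after the genes were seen, and the shares of all genes that stand beside their counts are those given above, 30.2% higher and 29% lower in KO and 11.6% and 8.9% in WT cells after LIF withdrawal, and 31% and 30% in KO and 19.7% and 18.9% in WT embryoid bodies. Of the 23 epithelial genes 10 rose and 3 fell in KO cells after LIF withdrawal, while 14 rose and none fell in WT cells. In embryoid bodies relative to pluripotent cells, 16 rose and none fell in KO, and 13 rose and 1, Krt19, fell in WT. Between embryoid bodies and LIF withdrawal, 11 were higher and none lower in KO embryoid bodies, while 1 was higher and 6 lower in WT embryoid bodies. The shares of all genes for that comparison were 16.7% higher and 17.6% lower in KO, and 9.57% and 12% in WT. Of the 26 multicopy genes 11 rose in KO and 2 in WT cells after LIF withdrawal, and 17 rose in KO and 9 in WT embryoid bodies, with none lower. Of the 17 neuronal genes 10 rose and 1 fell in KO and 7 rose and none fell in WT cells after LIF withdrawal. Of the 11 metabolic genes 7 rose and 1 fell in KO and 4 rose and none fell in WT cells.

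Esrp1 rose after LIF withdrawal by 2.81 ± 0.36 (log2, SE) in KO and by 1.55 ± 0.17 in WT cells, from the far lower KO level given above. Ocln rose in both genotypes after LIF withdrawal, by 2.17 ± 0.25 in KO and 1.04 ± 0.21 in WT cells. Cdh3 rose in KO cells by 1.19 ± 0.21 after LIF withdrawal and 2.47 ± 0.19 in embryoid bodies, while in WT cells its changes of 0.29 ± 0.17 and 0.15 ± 0.17 were not called. Ap1m2 and Crb3 were not called in KO cells after LIF withdrawal, at -0.35 ± 0.28 and -0.58 ± 0.25, and both rose there in WT cells, by 1.83 ± 0.21 and 1.20 ± 0.21.

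Among genes without a clone, predicted or RIKEN name, Sall2 rose furthest in KO cells after LIF withdrawal, by 3.95 ± 0.17 (log2 fold change, SE, edgeR adjusted p = 9.26e-09). Acot1 rose by 3.35 ± 0.34 (edgeR adjusted p = 5.435e-06) and Gpc3 by 3.13 ± 0.36 (edgeR adjusted p = 1.401e-05). The RIKEN gene 2610528J11Rik had a larger rise, 4.25 ± 1.0 (edgeR adjusted p = 0.002831), resting on 1 count over both KO pluripotent libraries. Cdcp1, a surface protein of epithelial cells, had 33 counts over both KO libraries after LIF withdrawal and 3 in pluripotent cells, a ratio of 10.4 (95% exact counting interval 3.27 to 53.1). Gpx2 fell the most, by 2.35 ± 0.36 on the log2 scale (edgeR adjusted p = 0.0001166), followed by Sgk1, which fell by 1.89 ± 0.12 (edgeR adjusted p = 1.346e-07). Ddit4l fell by 1.10 ± 0.19 (edgeR adjusted p = 0.0002894) and Lad1 by 1.25 ± 0.46 (edgeR adjusted p = 0.03321). Without the first KO library after LIF withdrawal the log2 fold change of Lad1 was -0.56 (edgeR adjusted p = 0.2535), so its fall rests on that library; it ran from -2.77 to -0.56 with each KO library left out, and the call was also lost without either KO pluripotent library.

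In KO embryoid bodies relative to KO pluripotent cells, Gpc3 rose by 4.57 ± 0.32 (log2, SE; edgeR adjusted p = 2.185e-07) and Mogat2 by 4.42 ± 0.42 (edgeR adjusted p = 2.756e-06). Gstm3 had 78 counts in the 2 KO embryoid body libraries and 1 in the 2 KO pluripotent ones, a ratio of 76.6 (13.3 to 3062). Rem2, a small GTPase that restrains calcium channels, had 94 and 3 counts, a ratio of 30.8 (10.2 to 152). Tmem213 had 4 counts in KO embryoid bodies and 0 in KO pluripotent cells and was not called. Gpx2 fell by 1.49 ± 0.32 (edgeR adjusted p = 0.001388) and Sgk1 by 0.48 ± 0.10 (edgeR adjusted p = 0.001757). Zfp365, at -0.49 ± 0.18 (edgeR adjusted p = 0.03706), and Syt11, at -0.40 ± 0.16 (edgeR adjusted p = 0.04302), were called, but neither call held without the second KO pluripotent or the second KO embryoid body library, where Zfp365 had -0.56 and -0.28 and Syt11 -0.19 and -0.33. Zfp365 also lost its call without the first KO pluripotent library (-0.43), and Syt11 without the second KO library after LIF withdrawal (-0.40) or the first of KO embryoid bodies (-0.47).

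In WT cells Pim2 rose the most, by 3.01 ± 0.17 after LIF withdrawal (edgeR adjusted p = 4.51e-07) and by 4.42 ± 0.17 in embryoid bodies (edgeR adjusted p = 1.467e-08), against 1.27 ± 0.16 and 1.76 ± 0.15 in KO cells, which were called as well. After LIF withdrawal it was followed in WT cells by Myl9, a myosin light chain, at 2.84 ± 0.49 (edgeR adjusted p = 0.001563), Ccno, of multiciliated cells, at 2.79 ± 0.30 (edgeR adjusted p = 6.026e-05) and Peg3 at 2.45 ± 0.15 (edgeR adjusted p = 5.362e-07). Sgk1 was the 1 gene that fell in WT cells after LIF withdrawal, by 0.58 ± 0.12 (edgeR adjusted p = 0.003817), though not with DESeq2 (adjusted p = 0.05516). In WT embryoid bodies Mogat2 rose by 3.46 ± 0.29 (edgeR adjusted p = 3.156e-06), Gstm3 by 2.97 ± 0.43 (edgeR adjusted p = 0.0002146) and Sox11 by 2.88 ± 0.21 (edgeR adjusted p = 1.315e-06). The falls there were Fgf17, which fell by 1.12 ± 0.21 (edgeR adjusted p = 0.001168), Krt19 by 1.0 ± 0.26 (edgeR adjusted p = 0.009729) and Hdgfl3, a relative of hepatoma-derived growth factor, by 0.77 ± 0.20 (edgeR adjusted p = 0.008739). With DESeq2 none of these 3 was called, at adjusted p of 0.06796, 0.08574 and 0.1948.

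Set side by side, after LIF withdrawal 39 of the 158 genes rose in both genotypes, 39 were called higher in KO and not in WT, 20 were called higher in WT and not in KO, and 1, Sgk1, fell in both. Of all 13990 genes 6.9% rose in both, and 21.8% and 3.01% were called higher in KO alone and in WT alone. Another 3 fell in KO and rose in WT, 4 were called lower in KO and not in WT, and 52 were called in neither, against 1.69%, 22.4% and 35.3% of all genes. In embryoid bodies 68 rose in both, 44 were called higher in KO and not in WT, 13 were called higher in WT and not in KO, and 26 were called in neither, against 10.1%, 16.9%, 5.93% and 27% of all genes. There 1 gene rose in KO and fell in WT, 1 fell in KO and rose in WT, 3 were called lower in KO and not in WT, and 2 lower in WT and not in KO, against 4%, 3.69%, 17.5% and 6.05% of all. A call in one genotype and not in the other is not a difference between them, and that difference was not tested, since it is built from the levels that chose the genes.

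**Figure D4:**
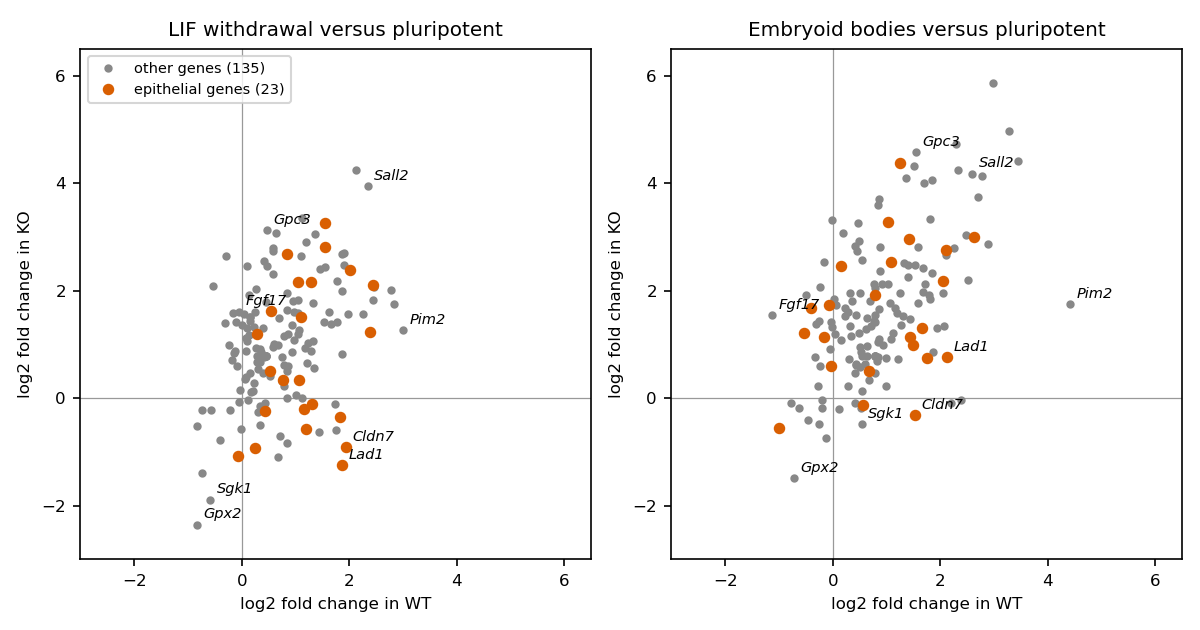
Log2 fold change of each of the 158 genes relative to pluripotent cells in KO (vertical) and in WT (horizontal), after LIF withdrawal and in embryoid bodies, on fitted values that depend on the prior count for genes with few counts. Most points are above 0 in both genotypes, with Sall2 at 3.95 in KO after LIF withdrawal and Pim2 at 4.42 in WT embryoid bodies among the farthest from 0.

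Markers of the cell types that such cultures can hold were read beside these results. None of the 10 general pluripotency genes was among the 158. Their summed FPKM was 3369 and 3601 in KO against 3674 in WT pluripotent cells. It was 3120 and 3001 against 2394 after LIF withdrawal, and 3338 and 3185 against 2467 in embryoid bodies. These sums mixed opposite moves. Dnmt3l was higher in KO in every culture, at 647.69 and 630.32 against 203.15 FPKM in pluripotent cells. It had 595.97 and 526.63 against 143.92 after LIF withdrawal, and 608.51 and 585.98 against 128.8 in embryoid bodies. Nanog was lower in KO pluripotent cells, at 232.63 and 264.65 against 389.78 FPKM, as were Sox2, Lin28a, Utf1, Zfp42 and Tdgf1. Dppa4 was higher there, and Pou5f1 and Sall4 had KO values on both sides of WT. Extraembryonic endoderm markers, 7 of 13 above the WT minimum, summed to 1351 and 1196 FPKM in KO against 181 in WT pluripotent cells, 456 and 418 against 250 after LIF withdrawal, and 602 and 527 against 375 in embryoid bodies. Most of that sum was Apoe, at 1202 and 1063 FPKM in KO against 98.8 FPKM in WT pluripotent cells, while Sox17, Afp and Ttr stayed below 1 FPKM in every library. Other genes of the list went the other way: Dab2 had 0.88 and 0.77 FPKM in KO against 2.0 FPKM in WT pluripotent cells, and Lamb1, left out of the selection by name, had 2.42 and 3.01 against 20.4 FPKM. No gene of that list was among the 158. Trophoblast markers, 7 of 11 above the minimum and with Krt7 and Krt19 among the 158, summed to 73.3 and 70.5 FPKM in KO against 81.8 in WT pluripotent cells, 39.0 and 43.8 against 155 after LIF withdrawal, and 58.3 and 59.4 against 156 in embryoid bodies, with Elf5 below 1 FPKM throughout and Tfap2c left out by name. In pluripotent cells this sum mixed Krt8 and Hand1, higher in KO, with Krt19 and others that were lower. Hand1 had 12.4 and 10.1 FPKM in KO against 0.7 FPKM in WT there. Fibroblast and feeder markers, 5 of 13 above the minimum, summed to 430 and 408 FPKM in KO against 198 in WT pluripotent cells, most of it Vim, to 163 and 155 against 85.7 after LIF withdrawal, and to 122 and 111 against 69.7 in embryoid bodies, while Col1a2, Col3a1, Lum, Dcn, Postn and Prrx1 stayed below 1 FPKM. Thy1 went the other way in every culture, with 16.4 and 20.8 FPKM in KO against 34.2 FPKM in WT pluripotent cells. Col1a1, 1 of the 158, was lower in KO too, while Twist1 was higher in KO pluripotent cells, at 2.38 and 3.8 against 1.08 FPKM. The part of these cell types in the differences between KO and WT was not tested. Lists of WNT feedback genes, axon guidance genes, p53 targets and ATF4 targets had 13, 29, 19 and 23 genes above the WT minimum, and none of these was among the 158, although Lef1, Plk2 and Ddit4 of these lists were left out by name. Lists for formative epiblast, primitive streak, and blood and endothelium had 11, 2 and 5 genes above the WT minimum and also held none of the 158, with Sox3, Lef1, Gata2 and Sox18 left out by name. Of all 11849 genes above that minimum, 1.51% met the fold criterion before any were left out. At that share, lists of these sizes would often hold none. Their absence from the 158 is therefore no sign that these genes were alike in KO and WT.

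The 2 KO libraries of a culture were not alike for these genes. In pluripotent culture 110 of the 158 were lower in the first KO library than in the second, against 6723 of all 11849, and after LIF withdrawal 116 were, against 6698, while in embryoid bodies 71 were, against 6004. The median absolute difference between the pair was 0.27, 0.28 and 0.21 on the log2(FPKM + 0.5) scale for the 158 genes and 0.11, 0.12 and 0.10 for all. Of the 158 genes 108 and 96 lay below 1 FPKM in the KO pluripotent libraries, and the part of low counts in this was not tested.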

How the data were processed

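RNA-seq was carried out on KO and WT cells, in 6 KO and 3 WT libraries. The submitters' processing notes name Bowtie2 and the mouse build mm8. How genes were quantified, and whether strand was used, is not given in the sources used here. Deposited tables, 1 per library, hold an expected count (estimated, not always whole) and an FPKM value per gene, per the file headers. The authors made these FPKM values, which scale by gene length and library size. In the deposited tables expected counts were within 0.005 of a whole number for 78.0% to 78.4% of genes. An unlisted gene was taken as 0.

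Gene IDs were named from the RefSeq table of GRCm38.p6, 20234 by ID and 9 by accession, and 44 had no match. Its coordinates are those of that build, not of the authors'. The 158 genes, the gene lists and the tests were chosen with earlier results of these data known, and groups by role were made after the genes were seen. Expected counts were rounded, and edgeR 4.0.16 (quasi-likelihood, TMM factors 0.94 to 1.04, 13990 genes averaging 0.5 FPKM or more, 1 mean for each of 6 groups) was fitted. The KO pairs supply its 3 residual degrees of freedom, with a biological coefficient of variation of 6.52%. Standard errors divide the log2 fold change by the square root of F. Alternatives were DESeq2 1.42.0, limma 3.58.1, RLE scaling, no filter, single KO libraries left out, and other pseudocounts and minimums. Chi-square over degrees of freedom between the libraries of a KO pair was 3.20, 4.37 and 2.88, above counting noise, so each library was counted separately.

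Genes named were the 12 with the lowest mean log2 difference and the 8 most abundant in WT, up to 4 rises and 4 falls per comparison, the 4 nearest to the threshold on each side and those on a fixed list; clone, predicted and RIKEN names were left out of the first 3 sets. Others are said to be chosen after their values were seen, and so were the printed promoters, in place of those of the 12 genes first planned.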

Additional observations from a re-analysis of the deposited data

Results flagged for a closer look

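For 5 of the 158 genes the calls between cultures ran in opposite directions in the 2 genotypes, which marks them for a closer look. Cldn7 had a log2 fold change after LIF withdrawal of -0.91 in KO and 1.94 in WT cells. Ddit4l had -1.10 in KO and 0.67 in WT cells, and Lad1 had -1.25 in KO and 1.87 in WT cells, in the same comparison. In embryoid bodies relative to pluripotent cells, Fgf17 had 1.54 in KO and -1.12 in WT, and Sgk1 had -0.48 in KO and 0.54 in WT. The difference between the genotypes was not tested in any of the 5, because it combines the contrasts that chose the genes. In all genes tested, 1.69% fell in KO and rose in WT cells after LIF withdrawal and 1.54% did the reverse, against 3.69% and 4% in embryoid bodies. The fall of Lad1 in KO cells was not called without the first KO library after LIF withdrawal (-0.56) or without either KO pluripotent library (-1.18 and -1.33), and the fall of Fgf17 in WT embryoid bodies was not called by DESeq2 (adjusted p = 0.06796). No other result met the criteria for a closer look, and no group held the 4 samples that a search for a single deviating library needs.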

How the results depend on the processing

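The selection was rerun with other settings. A pseudocount of 0.1 gave 201 genes and 1 gave 109, and a WT minimum of 0.5 or 2 FPKM gave 171 or 123. TMM-scaled counts per length gave 149 (148 of them among the 158). Leaving out 1 KO library at a time, which can only add genes, gave 160 to 180. With 1 culture left out, 357 genes met the criteria without pluripotent cells, 342 without embryoid bodies and 187 without LIF withdrawal. The median KO-to-WT log2 difference was -2.65 and -1.48 in pluripotent cells, -2.29 and -1.69 after LIF withdrawal and -1.85 and -1.42 in embryoid bodies with pseudocounts of 0.1 and 1, and -1.99 to -1.78, -2.14 to -1.89 and -1.63 to -1.60 with single KO libraries left out. For KO cells after LIF withdrawal 8 genes were called lower with edgeR, 3 to 9 with a KO library left out and 5 with DESeq2; in KO embryoid bodies the counts were 4, 2 to 4 and 2. Without the second KO pluripotent library they were 3 and 2, without the first KO library after LIF withdrawal 5, and without the second KO embryoid body library 2. For WT cells after LIF withdrawal 62 genes were called higher with edgeR, 37 with limma on log2(FPKM + 0.5) and 28 with DESeq2; 1 was called lower with edgeR, 2 with limma on log2(FPKM + 1) and 0 with DESeq2, where 1 had an unadjusted p below 0.05. In WT embryoid bodies DESeq2 called 50 higher and 0 lower, where 2 had an unadjusted p below 0.05, against 82 and 3 with edgeR. The cause of these shifts was not tested. No direction was reversed. Of single genes, 26 of 340 recomputed values lost their call, among Cdcp1, Lad1, Zfp365, Syt11, Sgk1, Fgf17, Krt19 and Hdgfl3. The labels do not say whether the replicate numbers of KO libraries pair the samples across cultures. Same-numbered libraries deviated together with correlations of 0.183, 0.022 and 0.0712, which cannot decide this, and the main fit used no pairing. In KO libraries alone, a replicate block gave 80 higher and 8 lower after LIF withdrawal and 111 and 5 in embryoid bodies, against 75 and 7 and 110 and 4 without it.

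Depth limits the low end: in KO pluripotent libraries 108 and 96 of the 158 genes lay below 1 FPKM, so their fold changes rest on few counts, and adding 0.5 to FPKM shrinks them. With 1 WT library per culture there is no measure of spread in WT.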
